A study of Rattus norvegicus with 20 samples.

Results

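Mki67, Top2a, Cdk1 and Cdkn1a are 4 genes of the cell division cycle, and their messenger RNA was followed in rat heart ventricles after monocrotaline (MCT) or saline. They were taken by Ensembl identifier from the 30452 rows of the count table: ENSRNOG00000028137 (Mki67), ENSRNOG00000053047 (Top2a), ENSRNOG00000000632 (Cdk1) and ENSRNOG00000000521 (Cdkn1a). The table lists identifiers without names, so the symbols come from the list that defined these 4 genes. All 4 were among the 10929 genes that passed the filter on low counts.

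The 20 libraries formed 4 groups of 5: right ventricle (RV) after MCT, RV after saline, left ventricle (LV) after MCT and LV after saline. Male rats of 250 g received MCT at 60 mg/kg, or saline, and were killed once a discomfort score of 7 or more was reached. MCT is a plant alkaloid that damages lung vessels and loads the RV. The labels give no strain, age or number of days to death, do not state that the libraries of a group came from separate animals, and describe whole ventricles, so values are for bulk tissue. The tests therefore weigh only the spread among the libraries, which could be technical.

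A dividing cell copies its DNA in S phase and separates it in mitosis. Ki-67, the product of Mki67, coats mitotic chromosomes and is present in cycling cells but not in resting ones. Top2a encodes topoisomerase II alpha, which untangles DNA strands before chromosomes separate. Cdk1 encodes the kinase that, bound to cyclins A and B, drives entry into mitosis. Cdkn1a encodes p21, an inhibitor of cyclin-dependent kinases that p53 can induce and that halts the cycle. Adult heart muscle cells rarely divide, and most cycling cells of the adult heart belong to other cell types, such as endothelial cells, fibroblasts and leukocytes.

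The promoters of the first 3 genes share short motifs, and a link of these motifs to transcript levels was not tested. Top2a and Cdk1 transcripts varied together across libraries, with a Pearson correlation of 0.89 after the group means were taken off. Mki67 followed Top2a less closely (0.76). Its value with Cdk1 was 0.52, near the 0.51 of Cdkn1a with Cdk1. The sequences are from RefSeq, build GRCr8, and run from 250 bases before to 50 bases after the listed start site, 5′ to 3′ on the gene's own strand. Capitals mark CCAAT boxes (CCAAT), the site of the factor NF-Y, and CHR elements (TTTGAA or TTCGAA), a motif of late cell cycle genes, on either strand. The windows are chr1:199952544-199952843 (minus strand) for Mki67, chr10:84473044-84473343 (minus) for Top2a, chr20:19265043-19265342 (plus) for Cdk1 and chr20:7150682-7150981 (plus) for Cdkn1a.
Mki67: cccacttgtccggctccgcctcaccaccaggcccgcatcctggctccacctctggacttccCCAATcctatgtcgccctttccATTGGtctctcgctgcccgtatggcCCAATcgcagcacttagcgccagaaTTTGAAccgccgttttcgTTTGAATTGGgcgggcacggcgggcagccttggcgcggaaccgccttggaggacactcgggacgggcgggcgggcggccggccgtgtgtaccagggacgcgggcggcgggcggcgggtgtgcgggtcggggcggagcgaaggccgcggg
Top2a: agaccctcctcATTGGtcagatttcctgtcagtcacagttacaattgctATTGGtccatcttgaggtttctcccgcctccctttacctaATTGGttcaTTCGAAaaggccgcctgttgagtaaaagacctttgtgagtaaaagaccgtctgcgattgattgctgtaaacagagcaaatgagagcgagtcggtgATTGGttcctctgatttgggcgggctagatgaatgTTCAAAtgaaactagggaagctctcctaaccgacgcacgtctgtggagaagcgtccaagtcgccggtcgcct
Cdk1: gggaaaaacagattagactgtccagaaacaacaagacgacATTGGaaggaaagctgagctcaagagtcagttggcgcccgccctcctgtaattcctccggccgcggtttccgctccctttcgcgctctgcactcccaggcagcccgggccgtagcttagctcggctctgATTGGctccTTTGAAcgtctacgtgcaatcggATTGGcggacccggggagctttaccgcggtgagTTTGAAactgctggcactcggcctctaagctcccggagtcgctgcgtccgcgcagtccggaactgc
Cdkn1a: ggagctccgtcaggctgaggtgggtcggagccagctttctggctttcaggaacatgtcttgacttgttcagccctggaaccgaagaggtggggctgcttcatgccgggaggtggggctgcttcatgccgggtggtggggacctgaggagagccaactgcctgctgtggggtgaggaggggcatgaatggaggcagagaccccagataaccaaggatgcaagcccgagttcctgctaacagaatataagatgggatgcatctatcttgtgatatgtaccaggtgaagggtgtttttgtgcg

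The Mki67 window held 4 CCAAT boxes and 2 CHR elements, of which 1 pair overlapped by a shared base. The Top2a window held 4 CCAAT boxes and 2 CHR elements, and the Cdk1 window 3 and 2. The Cdkn1a window held neither motif. Of all 33469 promoter windows in the table, 37.5% held a CCAAT box, 19.7% a CHR element and 50.7% neither. At least 3 CCAAT boxes together with at least 2 CHR elements, a combination chosen after these matches were seen, occurred in 29 windows, or 0.0866%. An E2F core (TTTCCCGC, TTTCGCGC, TTTGCCGC or TTTGGCGC) was found once, in the Cdk1 window, and in 2.14% of all windows. The GC box (GGGCGG) matched 7 times in Mki67, once each in Top2a and Cdk1, and in 33.1% of all windows. The TATA box (TATAAA) was in none of the 4 windows and in 14.2% of all windows. Matches describe these letters and are no evidence of binding. Each gene is shown at 1 listed start site, and whether the ventricles start transcription there was not tested. Other start sites were not searched, so the lack of both motifs in Cdkn1a holds for this window only.

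**Figure D1:**
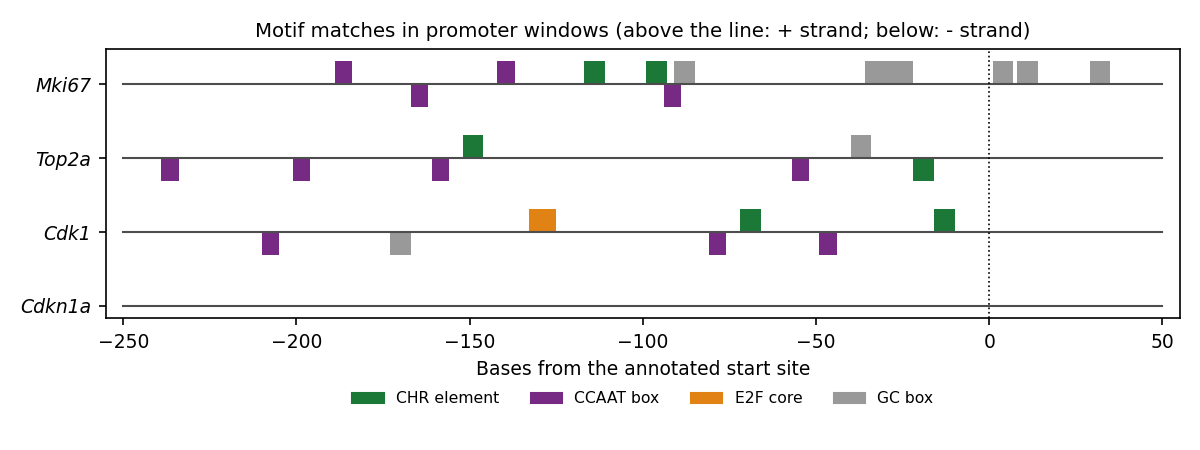
Motif matches by distance in bases from the annotated start site, with matches on the gene's strand above each line and those on the other strand below. The windows of Mki67, Top2a and Cdk1 each show 2 CHR elements and 3 or 4 CCAAT boxes, and the Cdkn1a line is empty.

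Library totals ran from 3272420 to 9227104 counts, and the members had from 5 counts (Cdk1) to 679 counts (Cdkn1a) in a library. A count of 5 has an exact 95% Poisson interval of 1.62 to 11.7, and intervals of this kind cover counting error only. Levels are given as CPM, counts scaled to a common library total, with library sizes adjusted by the TMM method of edgeR. Along the first principal component of all genes tested, RV MCT replicate 4 (-30.3) and LV MCT replicate 3 (-21.0) fell within the range of the saline libraries (-31.0 to -9.61). The other 8 MCT libraries lay at 7.12 to 54.1. The tissue label could not be checked against marker genes, because the sources used here do not pair the identifiers with names.

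In the LV, Cdk1 and Top2a rose after MCT, by 3.28-fold and 3.12-fold, and all 5 MCT libraries lay above all 5 saline libraries for both. Mki67 was 2.81-fold higher on average without passing the threshold, and Cdkn1a was 1.29-fold higher with wide overlap. So 2 of the 4 members were called higher and none lower (edgeR quasi-likelihood test, Benjamini-Hochberg adjusted p under 0.05), where 5.45% of all genes tested were called higher. The groups were fully separated, with MCT on the high side, for 2 of 4 members and for 3.21% of all genes. The median log2 fold change was 1.57 over the 4 members and 0.03 over all genes. The members were chosen with earlier results of these data known, so such contrasts with all genes, here and in the RV, are description only. In bulk tissue, more cycling cells and more RNA per cell cannot be told apart.

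Cdk1 was at 4.78, 5.58, 7.90, 7.63 and 12.1 CPM in LV MCT replicates 1 to 5. In LV saline replicates 1 to 5 it was at 2.40, 2.45, 3.27, 0.934 and 2.42 CPM. The lowest MCT library was thus above the highest saline library. Cdk1 averaged 7.60 ± 2.84 CPM after MCT and 2.29 ± 0.844 CPM after saline (SD, n = 5 each). Its log2 fold change was 1.72 (SE 0.36, 95% interval 0.96 to 2.47, edgeR adjusted p = 0.0115). This kinase gene stood at rank 105 of all 10929 genes by p-value. The call held when any 1 of the 10 LV libraries was left out, with edgeR adjusted p from 0.00614 to 0.0371.

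Top2a was at 10.2, 14.4, 26.5, 20.7 and 36.8 CPM in LV MCT replicates 1 to 5. In LV saline replicates 1 to 5 it was at 9.24, 9.45, 7.54, 2.62 and 5.80 CPM. The groups did not overlap, but LV MCT replicate 1 was close to the upper saline libraries. The means were 21.8 ± 10.5 CPM after MCT and 6.93 ± 2.83 CPM after saline (SD, n = 5 each). The log2 fold change was 1.64 (SE 0.42, 95% interval 0.78 to 2.51, edgeR adjusted p = 0.0207). Without LV MCT replicate 5, LV saline replicate 4 or LV saline replicate 5 the log2 fold change was 1.35, 1.41 or 1.59 and the edgeR adjusted p 0.0677, 0.0553 or 0.0517. The other 7 omissions of 1 library kept the call.

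Mki67 was at 2.89, 3.65, 11.7, 5.67 and 10.2 CPM in LV MCT replicates 1 to 5. In LV saline replicates 1 to 5 it was at 3.51, 2.45, 2.26, 1.12 and 2.17 CPM. Of the MCT libraries 4 lay above every saline library and replicate 1 lay among them. The means were 6.81 ± 3.93 CPM after MCT and 2.30 ± 0.851 CPM after saline (SD, n = 5 each). The log2 fold change of 1.49 (SE 0.50, 95% interval 0.45 to 2.53) had an edgeR adjusted p of 0.0635. DESeq2 put the adjusted p at 0.0273, and limma voom with quality weights at 0.0471 with a lower log2 fold change of 1.07; over all alternatives it ran from 0.0159 to 0.576, where the lowest is an unadjusted permutation p. The highest Mki67 value, 11.7 CPM, came from LV MCT replicate 3, whose score on the first principal component of all genes was saline-like. Without this library the LV log2 fold changes were 1.21 for Mki67, 1.56 for Top2a and 1.69 for Cdk1. Their edgeR adjusted p-values were 0.109, 0.0203 and 0.00614.

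Cdkn1a was at 56.0, 59.6, 41.7, 35.5 and 52.2 CPM in LV MCT replicates 1 to 5. In LV saline replicates 1 to 5 it was at 47.7, 22.4, 56.3, 28.8 and 33.6 CPM. Only LV MCT replicate 2 lay above the highest saline library. The inhibitor gene averaged 49.0 ± 10.1 CPM after MCT and 37.8 ± 13.9 CPM after saline (SD, n = 5 each). Its log2 fold change was 0.37 (SE 0.37, 95% interval -0.40 to 1.14, edgeR adjusted p = 0.584), and a rise of up to 1.14 on the log2 scale lies within this interval.

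**Figure D2:**
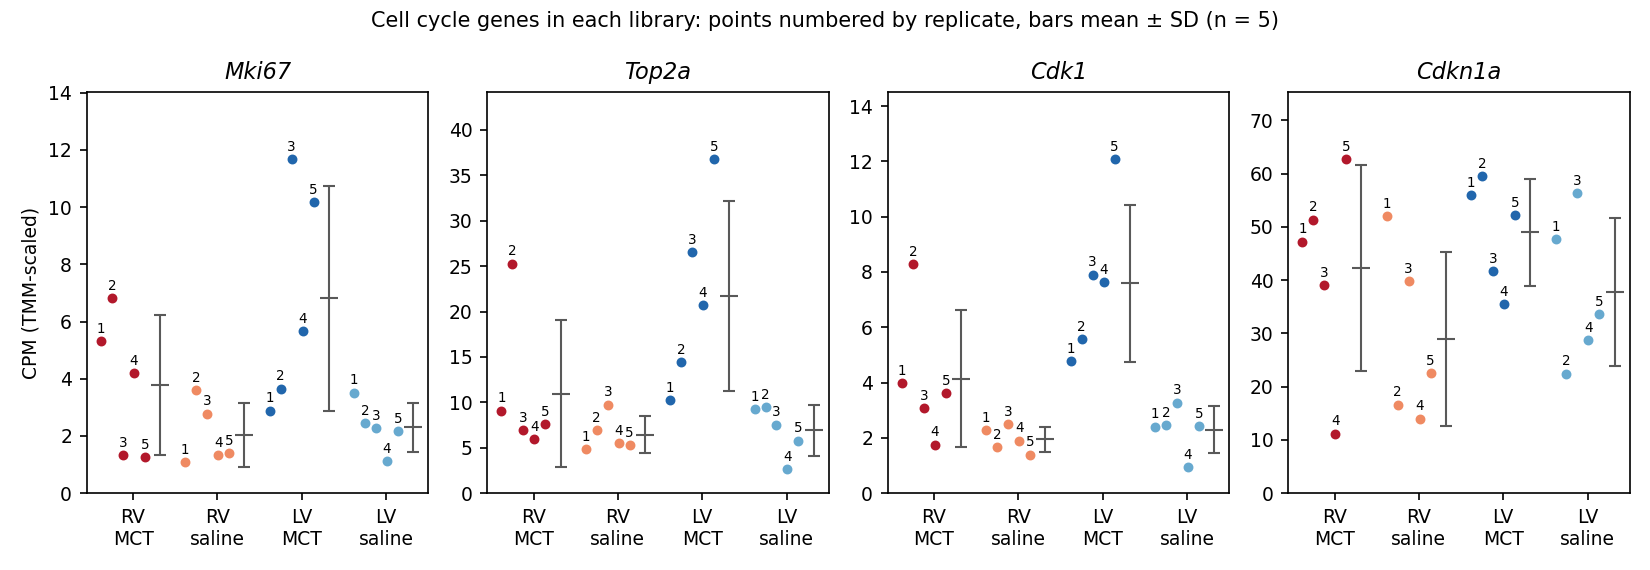
CPM of each gene in each library, with points numbered by replicate and bars for the mean ± SD of 5 libraries; each vertical axis starts at 0. Cdk1 and Top2a show LV MCT above LV saline without overlap, and RV MCT replicate 2 stands high at 25.3 CPM of Top2a.

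The LV differences of the 3 proliferation genes were larger among libraries whose description codes read as November than among those that read as May or June. Top2a averaged 17.1 CPM after MCT and 8.75 CPM after saline in the May and June libraries (n = 3 each), a log2 fold change of 0.90 (edgeR adjusted p = 0.466). In the November libraries it averaged 28.8 and 4.21 CPM (MCT and saline, n = 2 each), a log2 fold change of 2.78 (edgeR adjusted p = 0.026). For Cdk1 the log2 fold changes were 1.10 in May and June (edgeR adjusted p = 0.33) and 2.56 in November (edgeR adjusted p = 0.0403). For Mki67 they were 0.97 (edgeR adjusted p = 0.576) and 2.24 (edgeR adjusted p = 0.0718), and for Cdkn1a 0.28 (edgeR adjusted p = 0.802) and 0.48 (edgeR adjusted p = 0.661). The difference between these sets of libraries was not tested. With the month as a term over all libraries, the LV log2 fold changes of Mki67, Top2a, Cdk1 and Cdkn1a were 1.54, 1.72, 1.75 and 0.38.

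In the RV no member passed the threshold (edgeR quasi-likelihood test), although all 4 averaged higher after MCT. The RV background was 0.238% of genes called higher and 0.961% with every MCT library above every saline library, and 0 of 4 members met either. At an unadjusted p under 0.05 there was 1 member of 4, Cdk1, where 17.5% of all genes (1914) were under it, and DESeq2 and limma voom with quality weights also called none of the 4. The median log2 fold change was 0.89 over the members and 0.01 over all genes. A change of the size seen in the LV lies within the RV intervals of Mki67, Top2a and Cdk1.

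Cdk1 was at 3.99, 8.29, 3.07, 1.75 and 3.62 CPM in RV MCT replicates 1 to 5. In RV saline replicates 1 to 5 it was at 2.28, 1.66, 2.51, 1.89 and 1.39 CPM. Of the MCT libraries 4 lay above every saline library, and replicate 4 lay among them. Cdk1 averaged 4.14 ± 2.47 CPM after MCT and 1.95 ± 0.452 CPM after saline (SD, n = 5 each). The log2 fold change was 1.14 (SE 0.37, 95% interval 0.37 to 1.91, edgeR adjusted p = 0.118). Without RV MCT replicate 4 it was 1.29 (edgeR adjusted p = 0.0345), and without replicate 2 it was 0.71 (edgeR adjusted p = 0.412).

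Top2a was at 9.09, 25.3, 6.96, 5.95 and 7.60 CPM in RV MCT replicates 1 to 5. In RV saline replicates 1 to 5 it was at 4.83, 6.93, 9.74, 5.49 and 5.25 CPM. Only RV MCT replicate 2 exceeded the saline range. The means were 10.97 ± 8.07 CPM after MCT and 6.45 ± 2.003 CPM after saline (SD, n = 5 each). The log2 fold change of 0.83 (SE 0.42, 95% interval -0.04 to 1.69, edgeR adjusted p = 0.31) became 0.24 without that library (edgeR adjusted p = 0.859).

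Mki67 was at 5.32, 6.82, 1.33, 4.20 and 1.27 CPM in RV MCT replicates 1 to 5. In RV saline replicates 1 to 5 it was at 1.07, 3.60, 2.78, 1.33 and 1.39 CPM. The MCT libraries were divided, with 3 above all saline libraries and 2 near the lowest of them. The means were 3.79 ± 2.46 CPM after MCT and 2.04 ± 1.10 CPM after saline (SD, n = 5 each), a log2 fold change of 0.96 (SE 0.52, 95% interval -0.11 to 2.04, edgeR adjusted p = 0.349). Without RV MCT replicate 2 it was 0.56 (edgeR adjusted p = 0.739), and with limma voom and quality weights it was 0.46 (adjusted p = 0.699).

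Cdkn1a was at 47.2, 51.4, 39.1, 11.2 and 62.8 CPM in RV MCT replicates 1 to 5. In RV saline replicates 1 to 5 it was at 52.1, 16.6, 39.8, 14.01 and 22.6 CPM. RV MCT replicate 4 was the lowest of these 10 libraries and RV MCT replicate 5 the highest. The means were 42.3 ± 19.4 CPM after MCT and 29.0 ± 16.3 CPM after saline (SD, n = 5 each). The log2 fold change was 0.55 (SE 0.37, 95% interval -0.22 to 1.32, edgeR adjusted p = 0.485). It was 0.88 without RV saline replicate 1 (edgeR adjusted p = 0.249) and 0.78 without RV MCT replicate 4 (edgeR adjusted p = 0.143).

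Within the May and June codes the RV log2 fold changes were 0.92 for Mki67, 0.99 for Top2a, 1.24 for Cdk1 and 0.34 for Cdkn1a. Within the November codes they were 0.86, 0.36, 0.79 and 1.05 in the same order of genes. None passed the threshold in either set, where the edgeR adjusted p ran from 0.111 to 0.97. RV MCT replicate 4 is 1 of only 2 RV MCT libraries with a November code.

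**Figure D3:**
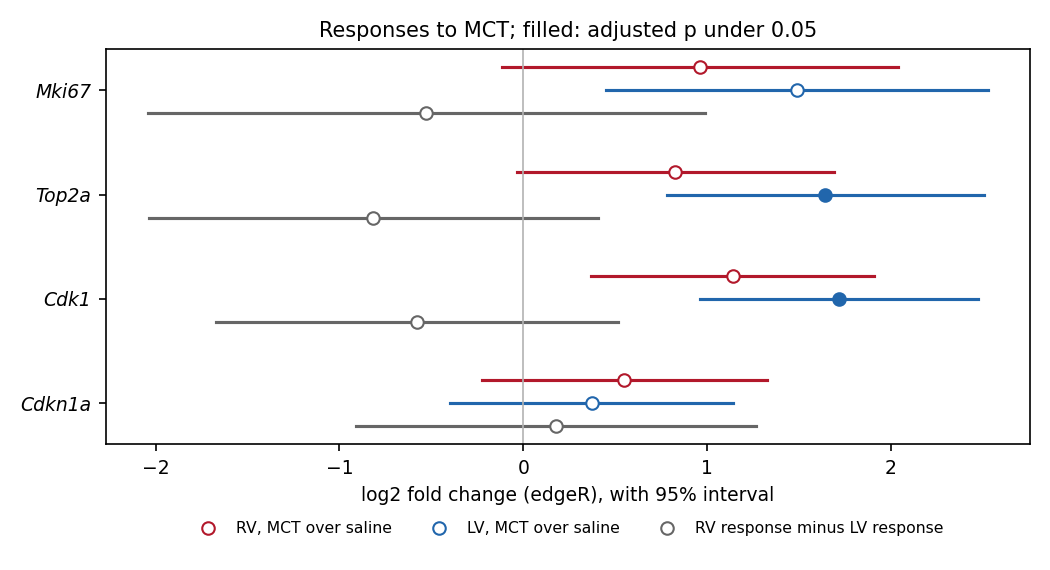
Log2 fold change of MCT over saline in the RV and LV, and the RV response minus the LV response, with 95% intervals from edgeR; filled points have an adjusted p under 0.05. Only Top2a (1.64) and Cdk1 (1.72) in the LV are filled.

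The response of the 2 ventricles was compared directly, since a call in the LV and none in the RV does not show a difference. The RV log2 response minus the LV one was -0.53 for Mki67 (95% interval -2.04 to 0.99), -0.82 for Top2a (-2.04 to 0.40) and -0.58 for Cdk1 (-1.67 to 0.51). For Cdkn1a it was 0.18 (-0.91 to 1.27). All 4 had an edgeR adjusted p of 1, and 0% of all genes were called, with 305 genes at an unadjusted p under 0.05. DESeq2 and limma voom each called 1 gene, and none of the members. Single libraries moved these values. Without RV MCT replicate 2 they were -0.91 for Mki67, -1.39 for Top2a, -0.99 for Cdk1 and 0.12 for Cdkn1a. The unadjusted edgeR p-values of Top2a and Cdk1 were then 0.0105 and 0.0472, and all adjusted values were 1. Omitting LV MCT replicate 5 gave -0.31, -0.53, -0.34 and 0.22 in the same order of genes. Top2a and Cdk1 then had unadjusted edgeR p-values of 0.37 and 0.515. With RV MCT replicate 4 and LV MCT replicate 3 both left out, the differences of response were -0.28, -0.59, -0.40 and 0.36 in the same order of genes. Within the May and June codes they were -0.05, 0.09, 0.14 and 0.06, and within the November codes -1.38, -2.42, -1.77 and 0.56, with edgeR adjusted p from 0.976 to 0.999.

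After MCT the 3 proliferation genes were lower on average in the RV than in the LV, without a call. The log2 difference of RV MCT from LV MCT was -0.80 for Mki67 (95% interval -1.77 to 0.17), -0.93 for Top2a (-1.74 to -0.12) and -0.79 for Cdk1 (-1.48 to -0.11). Their unadjusted edgeR p-values were 0.0998, 0.0272 and 0.0255, and all adjusted values were 1. For Top2a and Cdk1, 4 of the 5 RV MCT libraries lay below every LV MCT library, and replicate 2 did not. The share of all genes with this pattern was not counted, so how unusual it is cannot be said. For Cdkn1a the difference was -0.20 (95% interval -0.96 to 0.56). No gene was called (edgeR, 0% of all genes, with 203 at an unadjusted p under 0.05), and DESeq2 and limma voom called none. Without RV MCT replicate 2 the differences were -1.19 for Mki67, -1.51 for Top2a, -1.21 for Cdk1 and -0.27 for Cdkn1a. The unadjusted edgeR p-values of Top2a and Cdk1 were then 0.000326 and 0.000913, and the adjusted values 0.712 and 0.873. That library held the highest RV MCT values of the 3 proliferation genes, so leaving it out lowered the RV means. Omitting LV MCT replicate 5, the highest LV library for Top2a and Cdk1, gave -0.59 for Mki67, -0.65 for Top2a and -0.57 for Cdk1. For Top2a and Cdk1 the unadjusted edgeR p-values were then 0.114 and 0.103. Without RV MCT replicate 4 and LV MCT replicate 3 the differences were -0.56 for Mki67, -0.71 for Top2a, -0.62 for Cdk1 and -0.02 for Cdkn1a. Top2a and Cdk1 then had unadjusted edgeR p-values of 0.114 and 0.0854.

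The RV minus LV difference after MCT also varied with the codes. Within May and June it was -0.33 for Mki67, -0.24 for Top2a and -0.19 for Cdk1. Within November it was -1.62, -2.04 and -1.76 in that order, with edgeR adjusted p from 0.62 to 0.665. After saline the RV minus LV difference was -0.27 for Mki67 (95% interval -1.42 to 0.88), -0.11 for Top2a (-1.02 to 0.79), -0.22 for Cdk1 (-1.06 to 0.63) and -0.38 for Cdkn1a (-1.16 to 0.40). Their edgeR adjusted p ran from 0.882 to 0.984, and none of the 4 was called where 0.0732% of all genes were. Without RV saline replicate 1 the difference of Cdkn1a was -0.72, and without RV saline replicate 2 that of Mki67 was -0.56.

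The order of group means was the same for each member, with LV MCT highest, then RV MCT, LV saline and RV saline. The share of all genes with this order was not counted, and the members are not independent, since their levels correlate over these libraries. No member was called between RV MCT and LV MCT or between RV saline and LV saline, and the ranges overlapped for all 4 members in both. Between RV MCT and LV MCT, the overlap of Top2a and Cdk1 came from RV MCT replicate 2 alone. Their edgeR 95% intervals there were -1.74 to -0.12 and -1.48 to -0.11. RV MCT and LV saline also overlapped for all 4 and were not tested. Against all 10 saline libraries of both ventricles, 5 of 5 LV MCT libraries were higher for Top2a and Cdk1, as for 1.03% of all genes. For Mki67 it was 4 of 5, and 6.13% of all genes had at least 4. Of the RV MCT libraries 3 of 5 were higher for Cdk1 and for Mki67, and 10.3% of all genes had at least 3. It was 1 of 5 for Top2a in the RV and for Cdkn1a in each ventricle.

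RV and LV libraries of a treatment share replicate numbers and description codes, but the labels do not say that they share an animal. In MCT libraries with the same number, the ventricle with more proliferation transcripts differed. In replicate 3, Mki67 was at 1.33 CPM in the RV and 11.7 CPM in the LV, and in replicate 5 at 1.27 and 10.2 CPM. In replicate 1 it was at 5.32 CPM in the RV and 2.89 CPM in the LV, and in replicate 2 at 6.82 and 3.65 CPM. Top2a and Cdk1 were higher in the RV only in replicate 2. Cdkn1a was lower in the RV in 4 of these 5 pairs, by a log2 difference of -1.66 in replicate 4 and of -0.09 to -0.25 in replicates 1 to 3, and higher in replicate 5.

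**Figure D4:**
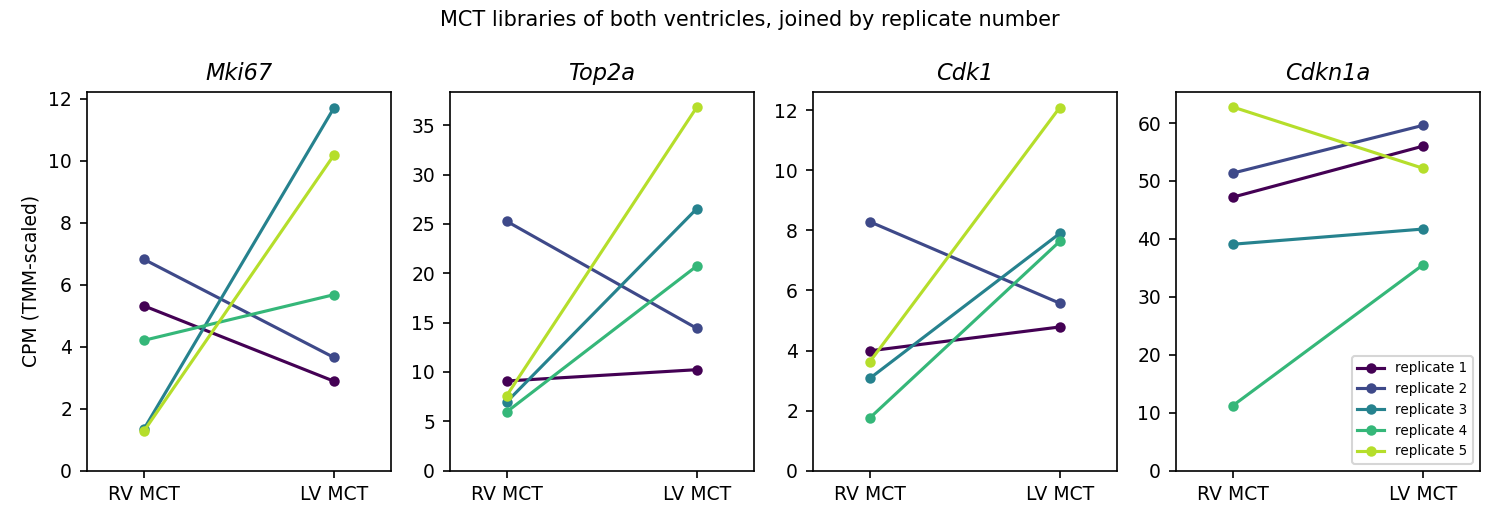
CPM in RV MCT and LV MCT libraries joined by replicate number, with vertical axes from 0. For Mki67 the lines of replicates 1 and 2 fall towards the LV and those of replicates 3, 4 and 5 rise, while Cdkn1a lines are flatter except in replicate 4.

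Over the 20 libraries Top2a and Cdk1 followed each other more closely than either followed any other gene. Their Pearson correlation of log2 CPM was 0.94, rank 1 of 10928 genes from either side, and 0.89 after the group means were taken off, again rank 1. Mki67 had a correlation of 0.86 with Top2a (rank 4 of the genes most like Mki67) and 0.75 with Cdk1 (rank 49). After the group means were taken off these were 0.76 and 0.52, at ranks 92 and 1182. The gene most like Mki67 was ENSRNOG00000060100 (0.92), which had LV means of 6.48 ± 3.09 CPM after MCT and 2.21 ± 1.35 CPM after saline (SD, n = 5 each; log2 fold change 1.55, edgeR adjusted p = 0.0606). These correlations describe libraries that share groups and perhaps animals, and carry no test.

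The correlations of Cdkn1a with the proliferation genes differed from gene to gene and were highest for Cdk1. Its correlation was 0.16 with Mki67, 0.41 with Top2a and 0.59 with Cdk1, at ranks 3683, 1425 and 338 of 10928 genes. After the group means were taken off, these were -0.16, 0.21 and 0.51, the last close to the 0.52 between Mki67 and Cdk1. The gene most like Cdkn1a was ENSRNOG00000045821 (0.88), with 279 ± 135 CPM in LV MCT and 206 ± 57.7 CPM in LV saline (SD, n = 5 each; log2 fold change 0.43, edgeR adjusted p = 0.532).

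The ratio of Cdk1 to Top2a counts varied by 1.98-fold over all libraries, between 0.24 and 0.476. The ratio of Mki67 to Top2a varied by 4.23-fold, between 0.167 and 0.706, and both of its extremes were RV MCT libraries (replicates 5 and 4). The ratio of Cdkn1a to Top2a varied by 7.76-fold, between 1.42 in LV MCT replicate 5 and 11 in LV saline replicate 4. Its median was 1.71 in LV MCT and 5.79 in LV saline, and 5.20 in RV MCT and 4.09 in RV saline. Its mean was lower after MCT in both ventricles, at 2.86 and 6.36 in the LV and 4.60 and 4.82 in the RV (MCT and saline). The direction in the RV thus depended on the use of median or mean, and the ranges overlapped in both ventricles. No test of the ratio was run. Some of these counts were low, and counting error for Mki67 at 7 counts spans 2.81 to 14.4.

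**Figure D5:**
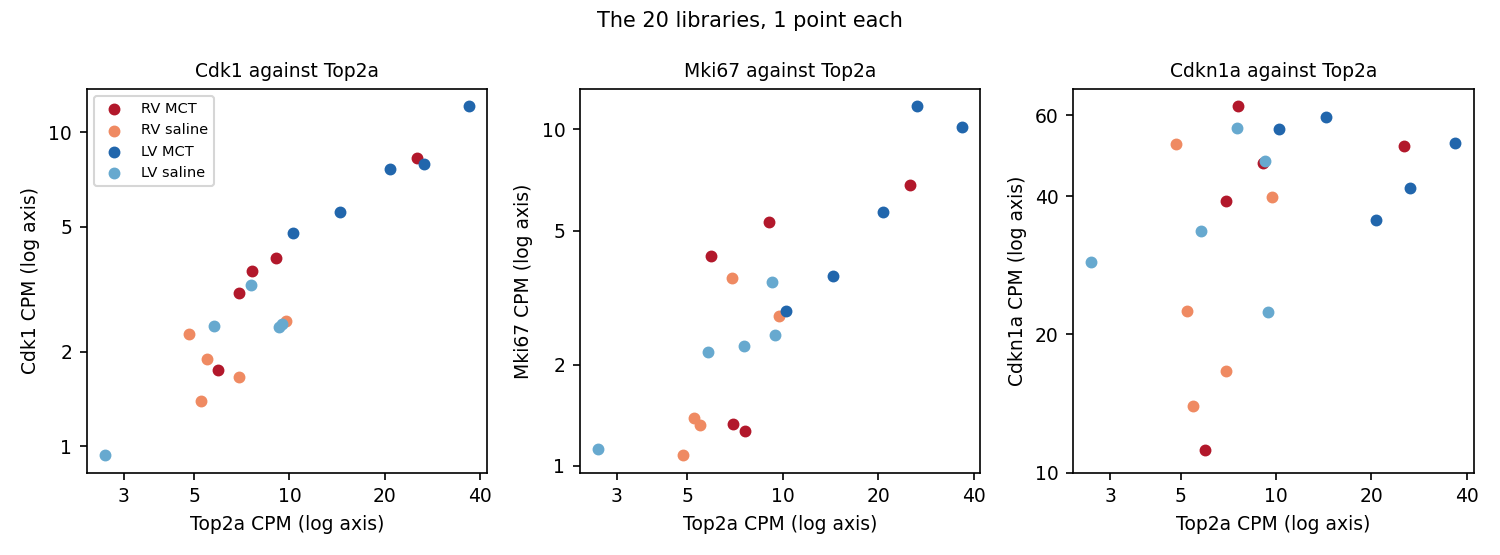
Cdk1, Mki67 and Cdkn1a against Top2a in CPM on log axes, 1 point per library, coloured by group. Cdk1 lies along a narrow band (correlation 0.94), Mki67 along a wider one (0.86), and Cdkn1a spreads widely (0.41).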

How the data were processed

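Libraries were made from total RNA with the QuantSeq 3' kit, which reads transcript ends, per the labels' protocols. The authors deposited raw read counts per Ensembl gene. STAR 2.7.10a and HTSeq 0.11.3, with the builds mRatBN7.2 and rn6, are named in the submitters' processing notes. No strand setting or annotation release appears in the sources used here, so how reads of overlapping genes were counted is not known.

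Counts were tested over all 10929 genes passing filterByExpr, with edgeR 4.0.16 in R 4.3.3 (TMM, robust quasi-likelihood fit of 4 group means over 20 libraries, Benjamini-Hochberg adjustment, threshold 0.05). The standard error of a fold change came from the F statistic, and log2 CPM used a prior count of 2. The script was tested on simulated counts. No pair of libraries in a group agreed within sampling noise (chi-square per degree of freedom at least 4.87). Alternatives were RLE scaling, no filter, DESeq2 1.42.0, limma 3.58.1 voom with sample quality weights (called limma voom where not spelled out), exact permutation tests (smallest p 0.0079), fewer libraries, the month read from description codes, and a replicate block.

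The reference table used (GRCr8) held an Ensembl ID for 0 of 47357 genes, so pathway lists by symbol could not be tested. The genes named besides the members are those with the highest correlation to Mki67 and Cdkn1a. Members, lists and motifs were chosen with earlier results of these data known.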

Additional observations from a re-analysis of the deposited data

Results flagged for a closer look

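Top2a in RV MCT replicate 2, at 25.3 CPM, stood far from the other 4 RV MCT libraries, which lay between 5.95 and 9.09 CPM. Its gap to the next library was 0.838 of the range of the group. This was 1 of 16 sets of 5 values looked at, and chance alone picks about 1 in 20. The same library also had the highest RV value of Mki67 (6.82 CPM) and Cdk1 (8.29 CPM). Its part in the RV results was measured by leaving it out, which gave RV log2 fold changes of 0.56 for Mki67, 0.24 for Top2a and 0.71 for Cdk1.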

How the results depend on the processing

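The numbers of genes called moved most. In the RV, 30 genes became 402 with DESeq2, 275 with limma voom, 18 without a filter, 0 in a fit of RV libraries alone, 19 when the month was a term, 188 in the May and June libraries and 0 in November, and leaving out 1 library gave 0 (without RV saline replicate 1 or 4) to 707 (without RV MCT replicate 4). In the LV, 1040 became 2911 with limma voom, 0 in May and June and 243 in November, and leaving out 1 library gave 331 (without LV MCT replicate 5) to 1699 (without LV MCT replicate 3). RV against LV after saline gave 8 genes, 13 with RLE, 80 with these groups alone, 88 with DESeq2, 125 with limma voom and 0 in November, while omitting a single library gave 0 to 11. After MCT it gave 0, with 3 in May and June and 0 to 2 when a single library was omitted. For the difference of responses it was 0, and 1 each with DESeq2 and limma voom. Leaving out RV MCT replicate 4 and LV MCT replicate 3 together, chosen after seeing the data, gave 1076 RV genes, 2016 LV genes and 1 for the difference.

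Among the members, the LV call of Cdk1 was lost only in the May and June libraries (adjusted p = 0.33). That of Top2a was lost there (0.466) and in a block of same-numbered MCT and saline libraries (0.0637), and leaving out 1 library gave 0.0203 to 0.0677. Mki67 in the LV passed with DESeq2 (0.0273), limma voom (0.0471) and the exact permutation test (unadjusted p = 0.0159). Cdk1 in the RV passed in the exact permutation test (unadjusted p = 0.0397) and without both libraries named above (0.0308), and leaving out 1 library gave 0.0345 to 0.412. Signs of uncalled differences turned in the May and June libraries for the difference of responses of Top2a and Cdk1 (log2 0.09 and 0.14, adjusted p = 0.999), and in November for RV against LV after saline of Top2a and Cdk1 (log2 0.38 and 0.007, adjusted p = 1). Leaving out 1 library turned RV against LV after saline of Top2a (adjusted p from 0.94 to 0.999), the difference of responses of Cdkn1a (0.999 to 1) and RV against LV after MCT of Cdkn1a (1). For none of these was the cause tested. In the RV and LV responses of Cdkn1a, and the RV responses of Mki67 and Top2a, all 21 alternatives kept direction and call. Mki67 could not be tested in the fit of saline libraries alone, where it did not pass the filter.

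With the replicate number as a block, fitted within a ventricle, 0 RV and 356 LV genes were called. The same fits without the block gave 0 and 827, and Top2a in the LV had an edgeR adjusted p of 0.0262 without it. This block joins MCT with saline libraries, whose description codes mostly differ, so the labels do not mark them as pairs. A block of same-numbered RV and LV libraries gave RV minus LV after MCT of -0.83 (Mki67), -1.05 (Top2a) and -0.89 (Cdk1). The unadjusted edgeR p-values were 0.177, 0.0234 and 0.0244, and 0 genes were called. Same-numbered libraries were taken as unpaired, since the labels do not say that they share an animal. Not every pair correlated above 0.1 in its deviations from group means, which cannot show whether libraries share an animal. MCT with saline gave -0.23 to 0.21 (RV) and -0.32 to 0.22 (LV), and RV with LV gave -0.35 to 0.24 (MCT) and -0.18 to 0.59 (saline). After saline, replicates 2, 4 and 5 correlated at 0.40, 0.59 and 0.25, each RV library best with its own number, and replicates 1 and 3 at -0.18 and -0.13. Depth limits Mki67 and Cdk1 most, with 5 to 74 counts per library.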

Other observations

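LV MCT replicate 3, which lay among the saline libraries on the first principal component (-21.0), had the highest Mki67 of all 20 libraries (11.7 CPM). It was the second highest for Top2a (26.5 CPM) and the third highest for Cdk1 (7.90 CPM). RV MCT replicate 4, the other MCT library among the saline ones, was among the lowest for Cdk1 (1.75 CPM) and had the lowest Cdkn1a of all 20 libraries (11.2 CPM). Its Mki67 (4.20 CPM) was above that of all 10 saline libraries. The highest Mki67 and the highest score on the component (54.1, RV MCT replicate 1) thus belonged to different MCT libraries. This was noticed in these values and was not tested.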
